A study of Mus musculus with 12 samples.

Results

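The G1 cyclins and the CDK inhibitors were followed in mouse uterine epithelial and stromal cells grown together and treated with estradiol (E2). They comprise the D-type cyclins Ccnd1, Ccnd2 and Ccnd3, the E-type cyclins Ccne1 and Ccne2, the CIP/KIP inhibitors Cdkn1a, Cdkn1b and Cdkn1c, and the INK4 inhibitors Cdkn2a and Cdkn2b. A gene was included when an array probe set carried its symbol alone, which held for 9 of the 10 genes, out of 19938 genes with such a probe set on the array. These 9 genes had 10 probe sets, because Cdkn1b had a brighter one (10542310) and a dimmer one (10542317). The only probe set of Cdkn1a also carried the symbol of a neighbouring RIKEN transcript, so no value is given for it.

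The cells came from uteri of CD-1 mice on day 4 of pseudopregnancy, the stromal cells growing on cover slips and the epithelial sheets on inserts coated with matrigel. All co-cultures spent a night in charcoal-stripped serum before the 2 days of treatment. Each layer was harvested alone, giving 3 arrays each of epithelial E2 (10 nM estradiol), epithelial vehicle (0.01% ethanol), stromal E2 and stromal vehicle, 12 in all. All groups share the strain and the primary co-culture, and the labels name no genetic change.

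Passage from G1 into S phase is driven by D-type cyclins, which bind CDK4 and CDK6, and by E-type cyclins, which bind CDK2. Both kinases phosphorylate the retinoblastoma family, which then releases the E2F factors that transcribe the genes of DNA replication. INK4 proteins bind CDK4 and CDK6 and keep D-type cyclins off, whereas CIP/KIP proteins bind assembled cyclin and CDK complexes. In the uterus of the living mouse estradiol is known for driving the luminal epithelium into the cell cycle, with stromal cells relaying part of the signal.

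The values are log2 signals of the Affymetrix Mouse Gene 1.0 ST array, summarised by RMA. Over the 23410 probe sets with a gene symbol the array medians lay between 7.38 and 7.43. The median SD of a probe set within a group was 0.158 in epithelial E2, 0.185 in epithelial vehicle, 0.0804 in stromal E2 and 0.0946 in stromal vehicle. Of 14 measured epithelial markers 11 were higher in the epithelial than in the stromal layer under E2 and 13 under vehicle, Cdh1 by 3.88 and 4.66 on the log2 scale. The epithelial arrays also carried the signal of other cells, with 14 stromal markers averaging 10.63 to 10.70 in epithelial E2 and 9.87 to 10.76 in epithelial vehicle arrays, against 10.89 to 11.09 in stromal E2 and 11.07 to 11.28 in stromal vehicle arrays. The 5 mesothelial markers averaged 9.45 to 9.84 and 9.75 to 10.44 in the epithelial E2 and vehicle arrays, against 7.25 to 7.36 and 7.17 to 7.38 in the stromal E2 and vehicle arrays. Leukocyte markers (11) averaged 8.15 to 8.86 in epithelial E2, 7.86 to 8.29 in epithelial vehicle, 8.57 to 8.81 in stromal E2 and 8.81 to 9.07 in stromal vehicle arrays, and endothelial markers (6) averaged 7.48 to 8.04 over all arrays. In these bulk layers fewer cells of a type and less RNA per cell cannot be told apart. Below, differences are log2 differences ± SE from limma, values of groups are means ± SD (n = 3), and a call is an adjusted p under 0.05 over all 23410 probe sets. Counts at an unadjusted p under 0.05 are given for the members and some lists. The share of all probe sets under that threshold was not computed, so these counts are not set against it. Whether the 3 arrays of a group stand for separate cultures or animals is not stated in the labels. The p-values therefore cover the spread among these arrays alone, which may be technical, and the number of arrays limits the precision.

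Promoters are shown for the members called under E2 for which RefSeq (build GRCm38.p6) gave an entry, Ccne1 and Cdkn2b, and for Cdkn2a, which lies next to Cdkn2b on chromosome 4. Each runs 5′ to 3′ from 250 bases before the start to 50 bases from the start on, with motif matches in capitals. The capitals mark the GC box (GGGCGG or its complement), the E2F site TTTCCCGC in the upstream Cdkn2a promoter and the cyclic AMP response element TGACGTCA in the Cdkn2b promoter.
Ccne1 (chr7:38107441-38107740, minus strand): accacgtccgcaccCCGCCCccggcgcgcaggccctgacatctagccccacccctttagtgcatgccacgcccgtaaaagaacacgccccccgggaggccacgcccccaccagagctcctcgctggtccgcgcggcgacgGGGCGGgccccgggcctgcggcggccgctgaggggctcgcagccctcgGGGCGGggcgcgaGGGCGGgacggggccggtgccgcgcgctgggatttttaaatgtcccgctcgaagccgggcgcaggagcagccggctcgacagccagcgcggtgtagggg
Cdkn2a, downstream start (chr4:89282143-89282442, minus strand): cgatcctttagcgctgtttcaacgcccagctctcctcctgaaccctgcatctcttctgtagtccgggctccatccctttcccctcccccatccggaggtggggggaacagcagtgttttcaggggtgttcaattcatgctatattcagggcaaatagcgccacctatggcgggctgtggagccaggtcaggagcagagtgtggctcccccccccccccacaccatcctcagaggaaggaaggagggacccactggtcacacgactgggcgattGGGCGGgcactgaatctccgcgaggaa
Cdkn2a, upstream start (chr4:89294570-89294869, minus strand): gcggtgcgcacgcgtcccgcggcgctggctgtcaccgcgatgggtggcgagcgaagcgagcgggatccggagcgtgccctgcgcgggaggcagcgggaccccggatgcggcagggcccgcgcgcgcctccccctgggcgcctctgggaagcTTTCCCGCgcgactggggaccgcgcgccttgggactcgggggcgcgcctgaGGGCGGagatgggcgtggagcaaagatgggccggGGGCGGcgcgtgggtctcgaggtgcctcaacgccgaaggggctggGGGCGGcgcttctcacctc
Cdkn2b (chr4:89310983-89311282, minus strand): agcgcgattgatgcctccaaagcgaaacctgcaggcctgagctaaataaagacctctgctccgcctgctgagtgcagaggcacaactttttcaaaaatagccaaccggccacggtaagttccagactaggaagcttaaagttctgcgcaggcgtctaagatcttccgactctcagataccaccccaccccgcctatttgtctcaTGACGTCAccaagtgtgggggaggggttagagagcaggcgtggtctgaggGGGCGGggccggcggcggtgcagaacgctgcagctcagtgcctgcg
The upstream Cdkn2a start, the one nearer to Cdkn2b, is that of the Arf transcript, and the downstream one is that of Ink4a. The E2F site began 99 bases before the Arf start and is held by 1.07% of the 32851 mouse promoters of the same 300 bases. The cyclic AMP response element began 46 bases before the Cdkn2b start and is held by 1.79% of them. GC boxes are common, occurring in 35.7%, and numbered 4 in the Ccne1 promoter, 3 at the Arf start, 1 at the Ink4a start and 1 in the Cdkn2b promoter. The AP-1 site TGACTCA, the E-box CACGTG and the palindromic estrogen response element with any 3 central bases, searched on both strands, were absent from the 9 promoters of the 6 members with an entry, and are held by 5.2%, 7.15% and 0.07% of all promoters. These matches describe letters, not binding.

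**Figure D1:**
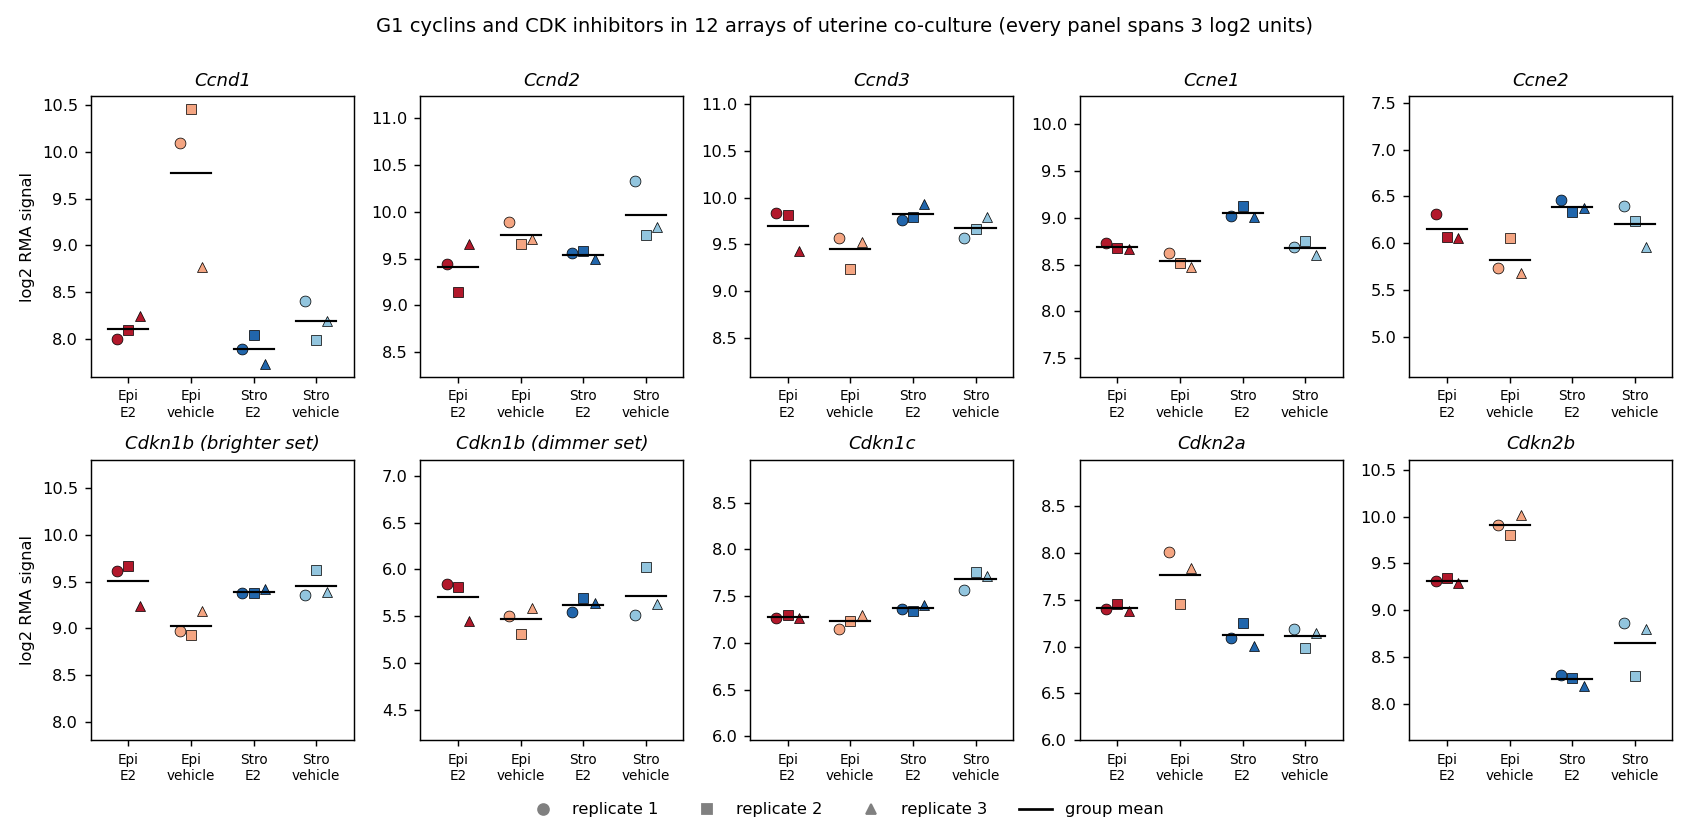
Log2 RMA signal (y axis) of the 10 probe sets in each of the 12 arrays, with the groups along the x axis, a point per array shaped by replicate number and a bar at the group mean. Every panel spans the same number of log2 units. Ccnd1 lay at 8.77 to 10.46 in epithelial vehicle arrays and no higher than 8.40 in all others, and Cdkn2b lay higher in every epithelial than in every stromal array.

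In the epithelial layer Ccnd1 and Cdkn2b fell under E2, and no member rose past the test. Ccnd1, the estrogen- and growth-factor-responsive D cyclin, fell 3.16-fold, and Cdkn2b (p15), an inhibitor of CDK4 and CDK6, fell 1.51-fold. Of the 10 probe sets 2 were called, both lower, where 2.90% of all tested probe sets were called, 1.77% higher and 1.12% lower. The E2 and vehicle arrays did not overlap for 6 of the 10, against 15.0% of all probe sets. The median difference of the members was 0.11, against 0.03 over all probe sets.

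Among the D cyclins, Ccnd1 (probe set 10569646) had values of 8.0, 8.09 and 8.25 in epithelial E2 arrays, against 10.10, 10.46 and 8.77 in epithelial vehicle arrays. Every E2 array lay below every vehicle array, but vehicle replicate 3 stood close to the E2 arrays and far from the other vehicle arrays. The means were 8.11 ± 0.13 in E2 and 9.77 ± 0.89 in vehicle, a difference of -1.66 ± 0.33 (95% interval -2.38 to -0.94, adjusted p = 0.0214). The mean of the 14 epithelial markers ran alongside, at 9.41, 9.62 and 9.71 in epithelial E2 arrays, against 10.52, 11.06 and 9.51 in epithelial vehicle arrays. For the marker mean vehicle replicate 3 lay among the E2 arrays. Of those markers 13 lay below 0 in the comparison and 1 was called, Cldn4, which fell by 1.24 ± 0.25 (adjusted p = 0.0224), while 1 gene was called in each of 4 other marker lists, Msln of mesothelium (-1.32 ± 0.19, adjusted p = 0.00421) and Actg2 of smooth muscle (-1.02 ± 0.21, adjusted p = 0.0285) lower, and Csf1r of leukocytes (1.01 ± 0.14, adjusted p = 0.00317) and Kdr of endothelium (1.33 ± 0.26, adjusted p = 0.0206) higher. In those 4 lists 2 of 5 mesothelial, 2 of 6 smooth muscle, 10 of 11 leukocyte and 3 of 6 endothelial markers lay above 0. Their medians were -0.29, -0.17, 0.57 and 0.03. Of the stromal markers 11 of 14 lay above 0 (median 0.28), with no call. The part of these markers in the Ccnd1 and Cdkn2b results was not tested. The Ccnd1 call was lost when vehicle replicate 1 (-1.50, adjusted p = 0.0758), E2 replicate 1 (-1.60, adjusted p = 0.0963) or E2 replicate 2 (-1.65, adjusted p = 0.0895) was left out, and when the 6 epithelial arrays were fitted alone (adjusted p = 0.216). Without vehicle replicate 3 the difference was -2.16 (adjusted p = 5.63e-05).

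**Figure D2:**
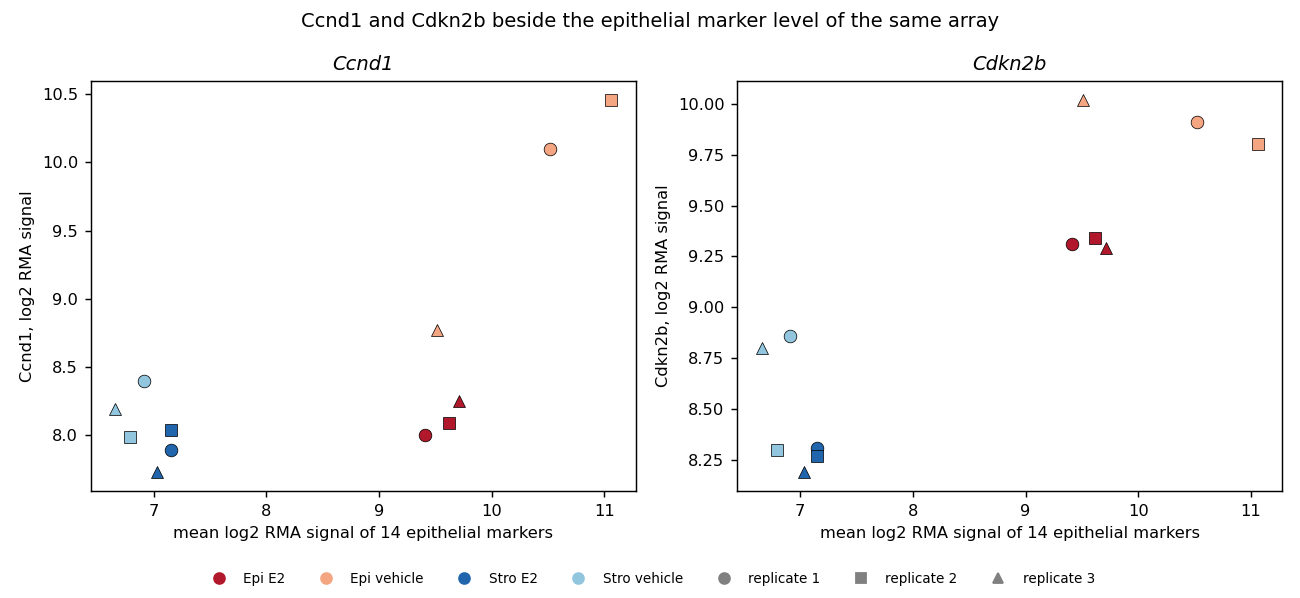
Log2 RMA signal of Ccnd1 (left) and Cdkn2b (right) on the y axis against the mean log2 signal of 14 epithelial markers in the same array on the x axis, with a point per array coloured by group and shaped by replicate. Epithelial vehicle replicate 3, with a marker mean of 9.51, lay beside the E2 arrays for Ccnd1 (8.77) and had the highest Cdkn2b value (10.02).

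The other D cyclins did not pass the test in epithelium. Ccnd2 averaged 9.41 ± 0.26 in E2 and 9.75 ± 0.13 in vehicle arrays, and Ccnd3 averaged 9.70 in E2 and 9.45 in vehicle arrays. Their differences were -0.34 ± 0.16 (adjusted p = 0.345) and 0.25 ± 0.13 (adjusted p = 0.375), with overlapping arrays in both cases. The E cyclins had small positive differences that did not pass either. Ccne1 differed by 0.16 ± 0.08 (adjusted p = 0.367) without overlap. Ccne2 differed by 0.33 ± 0.13 (adjusted p = 0.244), its nearest arrays from either group both rounding to 6.05.

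Among the INK4 inhibitors, Cdkn2b (probe set 10514347) had values of 9.31, 9.34 and 9.29 in epithelial E2 arrays, against 9.91, 9.80 and 10.02 in epithelial vehicle arrays. The groups were well apart and each was tight, and vehicle replicate 3, low for Ccnd1 and the epithelial markers, was the highest of the 6 here. That array also had the highest mesothelial (10.44) and stromal (10.76) marker means of the 6. Its leukocyte (8.29), smooth muscle (11.16) and endothelial (7.73) means were not the highest. The part of these markers in its Cdkn2b value was not tested. Cdkn2b averaged 9.31 ± 0.03 in E2 and 9.91 ± 0.11 in vehicle arrays, a difference of -0.60 ± 0.13 (adjusted p = 0.0355). The value stayed between -0.54 and -0.66 whichever array was left out, but the call was lost without epithelial vehicle replicate 1 or 3, epithelial E2 replicate 1 or 2, or any stromal E2 array (adjusted p from 0.0557 to 0.127), and in the epithelial arrays fitted alone (adjusted p = 0.106). Cdkn2a, whose starts encode p16Ink4a and, in another reading frame, the p53-stabilising p19Arf, gave 7.40, 7.45 and 7.38 in E2 arrays, against 8.01, 7.46 and 7.84 in vehicle arrays. The probe set is annotated by gene symbol, and which of the transcripts its probes cover is not given in the sources used here. All E2 arrays lay below all vehicle arrays, though only just below vehicle replicate 2, and the difference of -0.36 ± 0.13 did not pass (adjusted p = 0.18). Without vehicle replicate 2 it was -0.51 (adjusted p = 0.023).

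Of the CIP/KIP inhibitors, Cdkn1b (p27), which restrains cyclin E and CDK2, gave 9.61, 9.67 and 9.24 in epithelial E2 arrays, against 8.97, 8.93 and 9.18 in epithelial vehicle arrays with its brighter probe set. The groups stood apart, though E2 replicate 3 and vehicle replicate 3 were near each other. The difference of 0.48 ± 0.12 missed the threshold (adjusted p = 0.0674). It passed under quantile scaling (0.47, adjusted p = 0.0274), with a filter on low values (adjusted p = 0.0483), with array weights (0.62, adjusted p = 0.000502), without vehicle replicate 3 (0.56, adjusted p = 0.033) and without E2 replicate 3 (0.61, adjusted p = 0.0083). The dimmer probe set differed by 0.23 ± 0.15, with overlap (adjusted p = 0.515). Cdkn1c (p57), the imprinted member of the family, differed by 0.05 ± 0.08 (95% interval -0.12 to 0.23, adjusted p = 0.83).

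**Figure D3:**
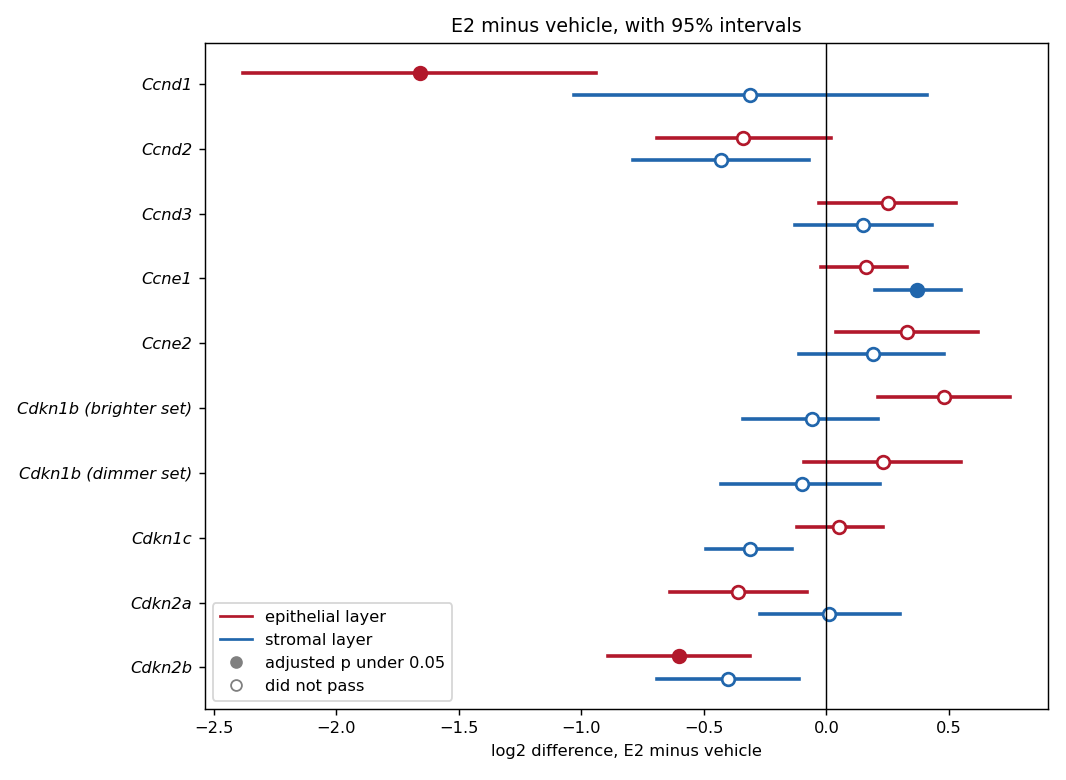
Log2 difference, E2 minus vehicle (x axis), of each of the 10 probe sets in the epithelial and stromal layers, with 95% intervals as lines and filled points where the adjusted p was under 0.05. Ccnd1 (-1.66) and Cdkn2b (-0.60) in epithelium and Ccne1 (0.37) in stroma are filled.

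In the stromal layer the only member past the test was Ccne1, the CDK2-binding cyclin that sets S-phase entry, which rose 1.30-fold. Thus 1 of the 10 probe sets was called, where 3.50% of all tested probe sets were called, 1.52% higher and 1.98% lower. The E2 and vehicle arrays did not overlap for 3 of the 10, against 30.5% of all probe sets, and the members' median difference was -0.08, against 0.03 over all. This comparison and the epithelial one use different arrays, with a shared estimate of the spread.

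Ccne1 (probe set 10562563) had values of 9.02, 9.13 and 9.01 in stromal E2 arrays, against 8.69, 8.75 and 8.60 in stromal vehicle arrays. The groups were tight and did not meet, with means of 9.05 ± 0.07 in E2 and 8.68 ± 0.08 in vehicle. The difference was 0.37 ± 0.08 (95% interval 0.20 to 0.55, adjusted p = 0.0226). It passed in the stromal arrays fitted alone (adjusted p = 0.0148), but not without stromal vehicle replicate 1 or 3 or without any 1 of the stromal E2 arrays (0.33 to 0.40, adjusted p from 0.0567 to 0.127). Beside it, the mean of the 14 epithelial markers was 7.15, 7.15 and 7.03 in stromal E2 arrays, against 6.91, 6.79 and 6.66 in stromal vehicle arrays, and that of 6 smooth muscle markers was 12.21 to 12.34 in E2, against 11.97 to 12.06 in vehicle arrays. Both lists stood higher in every E2 array, with 1 call in each, Krt7 (1.32 ± 0.28, adjusted p = 0.024) and Cnn1 (0.60 ± 0.08, adjusted p = 0.00175). Of 6 endothelial markers 1 was called, lower, Cdh5, which averaged 9.81 in stromal E2 and 11.31 in stromal vehicle arrays. That list had 2 markers above and 4 below 0 (median -0.03). Those above were Kdr (7.74 in stromal E2, 7.34 in stromal vehicle) and Emcn (9.18 and 8.51). Of the leukocyte markers 8 of 11 lay below 0 (median -0.40) and of the stromal markers 10 of 14 (median -0.29), with no call. The part of these markers in the Ccne1 result was not tested. The other E cyclin, Ccne2, averaged 6.39 in E2 and 6.20 in vehicle arrays, with overlap (0.19 ± 0.13, adjusted p = 0.729).

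Cdkn1c came nearest to the threshold among the rest, with 7.36, 7.34 and 7.40 in stromal E2 arrays, against 7.56, 7.76 and 7.72 in stromal vehicle arrays. The groups did not overlap, and the difference was -0.31 ± 0.08 (adjusted p = 0.0558). It passed with a filter on low values (adjusted p = 0.0495), with array weights (adjusted p = 0.00134), in the stromal arrays fitted alone (adjusted p = 0.0315), without epithelial vehicle replicate 2 (adjusted p = 0.0389) and without epithelial E2 replicate 3 (adjusted p = 0.0438). Both Cdkn1b probe sets overlapped, with differences of -0.06 ± 0.12 and -0.10 ± 0.15 (adjusted p = 0.942 and 0.917).

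Cdkn2b gave 8.31, 8.27 and 8.19 in stromal E2 arrays, against 8.86, 8.30 and 8.80 in stromal vehicle arrays. Vehicle replicate 2 lay within the E2 arrays and the other vehicle arrays above them. The difference of -0.40 ± 0.13 did not pass (adjusted p = 0.17), and was -0.58 (adjusted p = 0.00826) without vehicle replicate 2. Cdkn2a was at 7.12 ± 0.12 in E2 and 7.11 ± 0.11 in vehicle arrays. Of the D cyclins, Ccnd2, with 9.56, 9.58 and 9.49 in E2 arrays, against 10.33, 9.75 and 9.84 in vehicle arrays, did not overlap but did not pass (-0.43 ± 0.16, adjusted p = 0.252). Ccnd1 differed by -0.31 ± 0.33 (95% interval -1.03 to 0.41, adjusted p = 0.873) and Ccnd3 by 0.15 ± 0.13 (adjusted p = 0.81), both with overlap. The SE of Ccnd1 comes from the shared spread, which includes the wide epithelial vehicle group (SD 0.89, against 0.15 in stromal E2 and 0.20 in stromal vehicle). With the stromal arrays fitted alone Ccnd1 did not pass either (adjusted p = 0.167).

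Whether the E2 effect differed between the layers was tested as the epithelial minus the stromal difference. By limma 0 of the 10 probe sets passed, where 0.910% of all tested probe sets did, 0.641% with a positive and 0.269% with a negative difference, and 3 had an unadjusted p under 0.05. These were Cdkn1c (0.37 ± 0.11, adjusted p = 0.195), the brighter Cdkn1b probe set (0.54 ± 0.18, adjusted p = 0.237) and Ccnd1 (-1.35 ± 0.46, adjusted p = 0.271). For Ccnd1 the interval ran from -2.37 to -0.34, and without epithelial vehicle replicate 3 the difference was -1.86 and passed (adjusted p = 0.00205). The brighter Cdkn1b probe set passed without epithelial E2 replicate 3 (0.68, adjusted p = 0.0331). The Cdkn2b effects, -0.60 in epithelium and -0.40 in stroma, differed by -0.20 ± 0.19 (95% interval -0.61 to 0.21, adjusted p = 0.915), and the Ccne1 effects, 0.16 and 0.37, by -0.22 ± 0.11 (-0.46 to 0.02, adjusted p = 0.555).

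Under vehicle the layers differed in 5 of the 10 probe sets. Epithelial arrays were higher in Ccnd1 (2.99-fold), Cdkn2a (1.58-fold) and Cdkn2b (2.39-fold), and lower in the brighter Cdkn1b set (1.34-fold) and in Cdkn1c (1.37-fold). Thus Cdkn2a and Cdkn2b were higher, and Cdkn1c and the brighter Cdkn1b set lower, in epithelium, while the dimmer Cdkn1b set did not pass (-0.25 ± 0.15, adjusted p = 0.251). Of all probe sets 21.4% were called, 7.27% higher and 14.1% lower. The layers did not overlap for 6 of the 10, against 36.0% of all probe sets. These layer comparisons use the same arrays as the E2 comparisons above, and the part of the cell types whose marker levels are given above was not tested.

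Cdkn2b differed by 1.26 ± 0.13 (adjusted p = 9.13e-05), and even its lowest epithelial vehicle array, at 9.80, lay above its highest stromal vehicle array, at 8.86. Cdkn2a gave 8.01, 7.46 and 7.84 in epithelial vehicle arrays, against 7.19, 6.98 and 7.14 in stromal vehicle arrays, without overlap (0.66 ± 0.13, adjusted p = 0.00382). Their neighbour on the other side of Cdkn2a, Mtap, an enzyme of methionine salvage, was also higher in the epithelial layer under vehicle (0.67 ± 0.13, adjusted p = 0.00425). Ccnd1 averaged 9.77 ± 0.89 in epithelial and 8.19 ± 0.20 in stromal vehicle arrays (1.58 ± 0.33, adjusted p = 0.00552). All 3 epithelial vehicle arrays exceeded all 3 stromal ones, replicate 3 by the least.

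Cdkn1c gave 7.15, 7.23 and 7.30 in epithelial vehicle arrays, against 7.56, 7.76 and 7.72 in stromal vehicle arrays. The layers stood apart (-0.45 ± 0.08, adjusted p = 0.00201). Its flanking genes ran the other way. Kcnq1, a potassium channel, was higher in epithelium by 2.13 ± 0.29 (adjusted p = 0.000509), and Slc22a18, a transporter, by 1.90 ± 0.31 (adjusted p = 0.00125). Cdkn1b averaged 9.03 ± 0.14 in epithelial and 9.45 ± 0.15 in stromal vehicle arrays, a difference of -0.43 ± 0.12 (adjusted p = 0.0302) without overlap. It did not pass under quantile scaling (-0.26, adjusted p = 0.104), with the replicate number as a block within each treatment (adjusted p = 0.0645), in the vehicle arrays fitted alone (adjusted p = 0.0562), or without epithelial vehicle replicate 1 or 2 or stromal vehicle replicate 2 or 3 (-0.34 to -0.46, adjusted p from 0.057 to 0.126). Ccne2, at 5.82 in epithelial and 6.20 in stromal vehicle arrays, had an adjusted p of 0.0611 (-0.39 ± 0.13), which passed without epithelial vehicle replicate 2 (0.0156) or stromal vehicle replicate 3 (0.0288).

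Under E2 only Cdkn2b and Ccne1 differed between the layers past the test, 2 of 10 probe sets, where 13.6% of all were called, 4.43% higher and 9.18% lower. The arrays of the layers did not overlap for 5 of the 10, against 38.9% of all. Cdkn2b gave 9.31, 9.34 and 9.29 in epithelial E2 arrays, against 8.31, 8.27 and 8.19 in stromal E2 arrays. No 2 arrays of different layers came near each other, and the difference was 1.06 ± 0.13 (2.08-fold, adjusted p = 0.000337). Ccne1 averaged 8.69 ± 0.03 in epithelial and 9.05 ± 0.07 in stromal E2 arrays (-0.36 ± 0.08, adjusted p = 0.0101), without overlap. The Ccne1 call was lost without stromal E2 replicate 2 (-0.32, adjusted p = 0.0589) and under quantile scaling (-0.25, adjusted p = 0.0716). Ccnd1 averaged 8.11 ± 0.13 in epithelial and 7.89 ± 0.15 in stromal E2 arrays, and the arrays overlapped (0.23 ± 0.33, 95% interval -0.49 to 0.95, adjusted p = 0.698). This SE too includes the wide epithelial vehicle group, and Ccnd1 did not pass with the E2 arrays fitted alone (adjusted p = 0.225). Cdkn2a differed by 0.29 ± 0.13 without overlap (adjusted p = 0.172), and passed without epithelial vehicle replicate 2 (adjusted p = 0.0436).

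**Figure D4:**
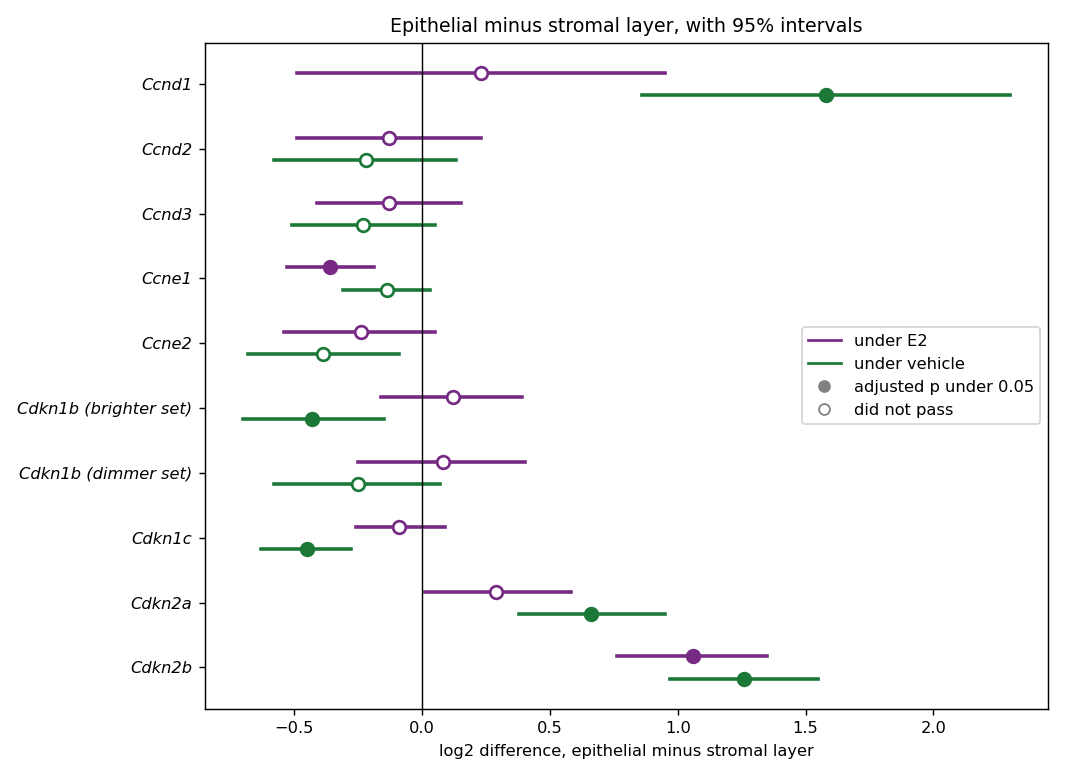
Log2 difference, epithelial minus stromal layer (x axis), of each of the 10 probe sets under E2 and under vehicle, with 95% intervals as lines and filled points where the adjusted p was under 0.05. Cdkn2b is filled under both treatments (1.06 and 1.26), Ccnd1 under vehicle alone (1.58).

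Placed in order of their means, Cdkn2b and Cdkn2a had both epithelial groups above both stromal groups. For each of these genes epithelial vehicle, epithelial E2 and the stromal groups were apart, whereas the stromal groups overlapped. Cdkn1c had the reverse order of layers, with stromal vehicle highest, then stromal E2, and overlapping epithelial groups lowest. In Ccnd1 epithelial vehicle stood alone above 3 groups that overlapped in order. In Ccne1 stromal E2 stood alone at the top, and the other groups overlapped with their neighbours. In Ccnd3, Ccne2 and the brighter Cdkn1b set epithelial vehicle had the lowest mean and was apart from the next group in the order, and the others overlapped in order. That gap was very small in Ccnd3 and Ccne2, where the nearest arrays both rounded to 9.57 and to 6.05. Epithelial vehicle still overlapped a group further up the order in both, epithelial E2 in Ccnd3 (lowest array 9.43) and stromal vehicle in Ccne2 (lowest array 5.96). In Ccnd2 the vehicle groups were the upper pair and the E2 groups the lower. Group means of Ccnd1 spanned 1.89 log2 units and those of Cdkn2b 1.65, against 0.66 for Cdkn2a, 0.57 for Ccne2, 0.56 for Ccnd2, 0.52 for Ccne1, 0.48 and 0.25 for the brighter and dimmer Cdkn1b sets, 0.45 for Cdkn1c and 0.38 for Ccnd3.

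The kinases and pocket proteins on which the members act showed no E2 change past the test. In epithelium Cdk6, a partner of D cyclins, differed by -0.62 ± 0.15 (adjusted p = 0.0541), Cdk2, the partner of E cyclins, by 0.40 ± 0.10 (adjusted p = 0.0617) and Cdk4 by 0.00 ± 0.09 (adjusted p = 0.994). In stroma their differences were -0.20, 0.01 and -0.15. Among the retinoblastoma family and the E2F and DP factors limma called 0 of 13 in either layer, with 2 in each at an unadjusted p under 0.05. Of all tested probe sets 2.90% were called in epithelium and 3.50% in stroma. Neither of the further INK4 genes, Cdkn2c (0.33 ± 0.19 in epithelium) and Cdkn2d (0.27 ± 0.11), was called.

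The layers did differ in some of these genes. Cdkn2c and Cdkn2d lay below 0 without passing, at -0.14 ± 0.19 and -0.27 ± 0.11 under vehicle and -0.08 ± 0.19 and -0.1 ± 0.11 under E2. Cdk6 was higher in the epithelial layer, by 0.69 ± 0.15 under E2 (adjusted p = 0.0107) and by 1.12 ± 0.15 under vehicle (adjusted p = 0.000465), while Cdk2 was lower under vehicle (-0.32 ± 0.10, adjusted p = 0.0439). Of the 13 pocket protein and E2F genes 4 were lower in epithelium under E2 and 5 under vehicle, where 9.18% and 14.1% of all probe sets were lower. None of the 13 was higher, where 4.43% of all were higher under E2 and 7.27% under vehicle. Rb1, the retinoblastoma protein itself, differed by -1.42 ± 0.28 under E2 and -0.93 ± 0.28 under vehicle, and E2f8, a repressor of the family, by -0.98 ± 0.15 and -1.23 ± 0.15. E2f6, another repressor, differed by -1.13 ± 0.19 under E2 and -1.04 ± 0.19 under vehicle, and E2f1, an activator, by -0.69 ± 0.12 and -0.45 ± 0.12.

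Genes that E2F transcribes at the G1/S boundary also gave no call under E2, 0 of 23 in either layer by limma (4 in epithelium and 2 in stroma at an unadjusted p under 0.05), with a median difference of 0.04 in epithelium and 0.12 in stroma, against 0.03 over all probe sets in both. With an array left out these medians ran from 0.03 to 0.09 and from 0.04 to 0.14. For this list and the mitotic markers the share called over all tested probe sets was 2.90% in epithelium and 3.50% in stroma. Of the mitotic markers 0 of 13 were called in either layer by limma, with 4 in epithelium and 5 in stroma at an unadjusted p under 0.05, although all 13 were above 0 in stroma. Their stromal median was 0.36, and 0.31 to 0.52 with any 1 stromal array other than E2 replicate 3 left out. In stromal E2 replicate 3 all 13 stood highest among the stromal arrays. Without it the median was 0.18, and all 13 stayed above 0, from 0.03 (Top2a) to 0.42 (Cdk1). Cdk1, the mitotic kinase, had the widest difference (0.61 ± 0.16, adjusted p = 0.0717). In epithelium the mitotic median was 0.13, and ran from 0.00 without E2 replicate 1 to 0.21 without E2 replicate 2 or vehicle replicate 2. Mki67, which encodes the proliferation antigen Ki-67, differed by 0.08 ± 0.27 (adjusted p = 0.93). Between the layers, 4 of the 23 G1/S genes were higher and 1 lower in epithelium under E2, where 4.43% of all probe sets were higher and 9.18% lower. Under vehicle the counts were again 4 and 1, where 7.27% of all were higher and 14.1% lower. The helicase subunits Mcm2 and Mcm6 were higher under both treatments (0.45 and 0.43 under E2, 0.35 and 0.44 under vehicle).

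Single genes around the members did pass under E2, where 2.90% of all tested probe sets were called in epithelium and 3.50% in stroma. In the p53 axis, which acts through Cdkn1a and receives the Arf signal, 1 of 16 was called in each layer. In both layers 11 of the 16 lay below 0, with medians of -0.26 in epithelium and -0.14 in stroma, against 0.03 over all probe sets. By limma 6 in epithelium and 4 in stroma had an unadjusted p under 0.05, with no share over all probe sets to set them against. The stress-induced Gadd45a rose in epithelium to 9.66, 9.78 and 9.68 in E2 arrays, against 9.04, 8.84 and 9.23 in vehicle arrays (0.67 ± 0.10, adjusted p = 0.00561), and the kinase Plk2 fell in stroma by 0.52 ± 0.11 (adjusted p = 0.0294). Of 10 genes for the turnover of cyclins and p27 only Cks2, a small CDK-binding subunit, was called, higher in epithelium (0.62 ± 0.14, adjusted p = 0.0414). Of the 7 measured imprinted neighbours of Cdkn1c only Kcnq1 was called, lower in epithelium at 7.51, 7.72 and 8.03 in E2 arrays, against 8.96, 9.98 and 8.46 in vehicle arrays (-1.38 ± 0.29, adjusted p = 0.0309). As with Ccnd1, vehicle replicate 3 was the lowest of its group. The 10 polycomb genes that silence the Ink4a and Arf transcripts gave 0 calls by limma in either layer, with 2 in epithelium and 3 in stroma at an unadjusted p under 0.05. Mtap differed by -0.51 ± 0.13 in epithelium (adjusted p = 0.0683) and -0.28 ± 0.13 in stroma (adjusted p = 0.438).

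**Figure D5:**
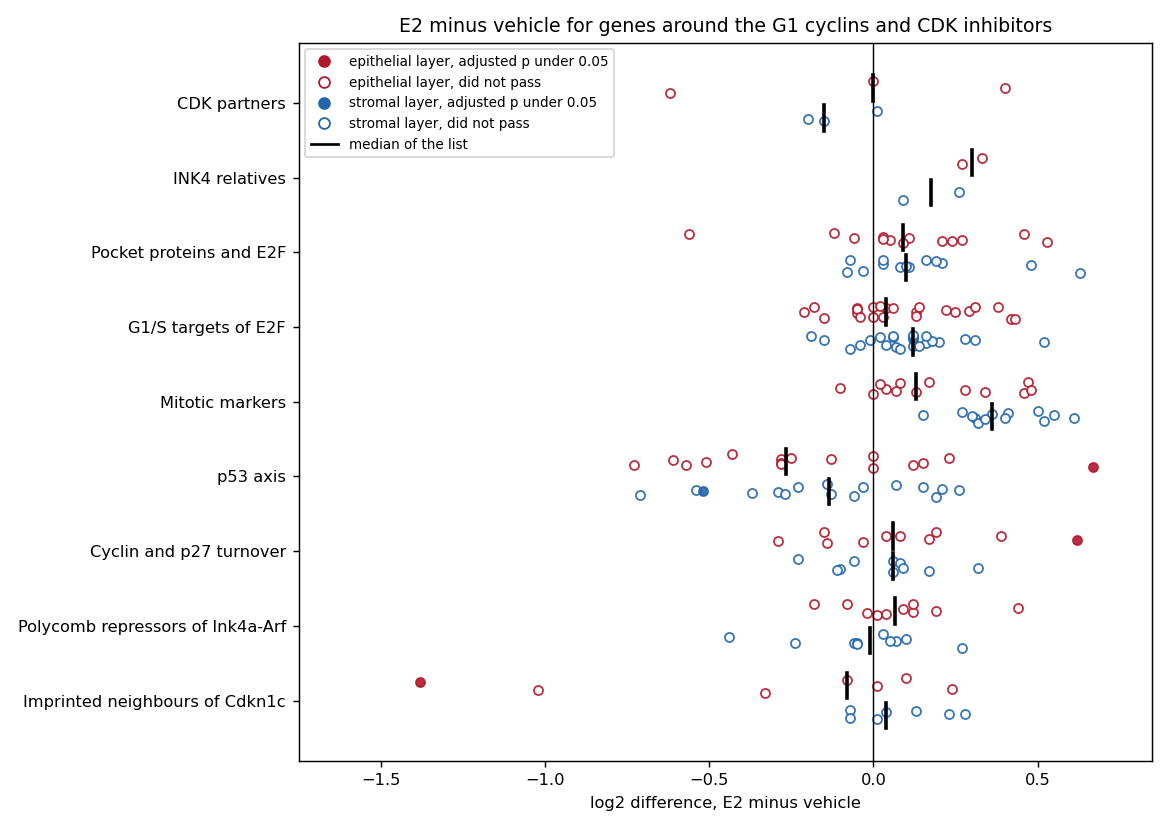
Log2 difference, E2 minus vehicle (x axis), of every measured gene in 9 lists of genes around the members (y axis), with a point per gene and layer, filled where the adjusted p was under 0.05, and a bar at the list median. Filled points are Gadd45a (0.67), Cks2 (0.62) and Kcnq1 (-1.38) in epithelium and Plk2 (-0.52) in stroma.

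The genes most like each member called under E2 were taken by Pearson's r over the 12 arrays, after removing each layer's mean, among 17305 genes. The points share arrays and treatment, so these values describe the patterns and carry no test. Ccnd1 was followed most closely by Prss22, a serine protease (r = 0.983), Akap12, a kinase-anchoring scaffold (r = 0.979), and Mab21l4 (r = 0.978). Their own E2 differences were -1.27, -1.42 and -1.54 in epithelium and -0.11, -0.06 and -0.01 in stroma. Cdkn2b was followed by Stom, a membrane scaffold (r = 0.967), Cers6, a ceramide synthase (r = 0.954), and Gnptab, which tags lysosomal enzymes (r = 0.942). These were below 0 under E2 in both layers, Stom by -0.78 in each. Ccne1 was followed by Lcmt1, a methyltransferase of protein phosphatase 2A (r = 0.977), Pir (r = 0.957) and Ddhd1, a phospholipase (r = 0.947), with stromal differences of 0.64, 0.60 and 1.34.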

How the data were processed

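RNA of 12 co-culture layers was hybridised to Affymetrix Mouse Gene 1.0 ST arrays. The deposited log2 values were made with RMA, per the submitters' processing notes; version, settings and annotation are not given in the sources used here. RMA compresses differences of dim probe sets, so folds here are not transcript ratios. Of 35556 probe sets, 23410 with a symbol in the platform annotation were tested as deposited, with limma 3.58.1 in R 4.3.3 (lmFit and eBayes, 4 group means, 8 residual and 3.27 prior degrees of freedom, two-sided, Benjamini-Hochberg in each of 5 comparisons); the procedure was tested on simulated data. Motifs and figures were made with Python 3.11.15 and matplotlib 3.10.9.

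The members, gene lists and marker lists were chosen with earlier results of these data known. Genes named were all members, up to 4 called genes of a list, and the 3 genes most like each member called under E2; Cdk4, the uncalled Cdk2 and Cdk6 values, Cdk1, Mki67 and Mtap were added after their values were seen.

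Replicate numbers came from the sample titles, and the labels tie them to no animal or culture. The residuals of same-numbered arrays correlated above 0.1 in all 3 pairs between the layers under vehicle alone (r = 0.17, 0.14 and 0.13), so in that comparison the fit with the number as a block within each treatment is given beside the calls it changes. Alternatives were a filter on low values, other sets of probe sets for the adjustment, median and quantile scaling, a variance trend, array weights, replicate blocks, the compared arrays alone, other thresholds and leaving out each array. Leaving arrays out of the list medians was added after seeing the data.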

Additional observations from a re-analysis of the deposited data

How the results depend on the processing

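Of 990 alternative values of the members, 917 kept their direction and side of the threshold, 29 lost a call, 33 gained one and 11 changed sign, none of them a called value; the causes were not tested except where fewer arrays or another family of tests made the setting. In the epithelial E2 comparison the 2 called probe sets became 1 when p was adjusted over all probe sets, 3 with the filter, quantile scaling or an adjusted p under 0.1, 6 with array weights and 0 with the replicate block within the layer, the compared groups alone or an adjusted p under 0.01, and 0 to 3 when an array was left out. In the stromal E2 comparison the 1 became 2 with the filter, the compared groups alone or an adjusted p under 0.1, 4 with array weights and 0 with the replicate block within the layer or under 0.01, and 0 to 2 when an array was left out. For the layer difference in the E2 effect the 0 became 5 with array weights, and 0 to 1 when an array was left out. Under E2 the 2 layer calls became 1 with quantile scaling or under 0.01 and 6 with array weights, and 1 to 3 when an array was left out. Under vehicle the count stayed within 4 to 6 of the 5 in all alternatives run.

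Array weights ran from 0.12 to 6.69 and raised the epithelial E2 calls over all probe sets to 4706, against 678 unweighted. The signs that turned were, with array weights, the dimmer Cdkn1b set in stroma (0.01), Ccnd2 in the layer difference of the E2 effect (-0.15) and Ccnd3 between layers under E2 (0.02), and, with quantile scaling, the dimmer Cdkn1b set between layers under E2 (-0.07). With an array left out they were the stromal E2 differences of the brighter (-0.11 to 0.02) and dimmer (-0.21 to 0.05) Cdkn1b sets and of Cdkn2a (-0.05 to 0.07), and Ccnd2 in the layer difference of the E2 effect (-0.09 to 0.23) and between layers under E2 (-0.26 to 0.01).

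The residuals of same-numbered arrays correlated at -0.42, 0.27 and 0.27 between epithelial E2 and vehicle, 0.20, -0.04 and 0.03 between stromal E2 and vehicle, and -0.31, 0.23 and -0.06 between the layers under E2, so there the numbers were not taken to pair the arrays. Between the layers under vehicle all pairs were above 0.1, and the replicate block within treatment called 4 in place of 5, losing the brighter Cdkn1b set (adjusted p = 0.0645) and changing no other call. With the replicate number as a block over all 12 arrays, 2, 1, 0, 2 and 6 members were called in the epithelial E2, stromal E2, difference, layer under E2 and layer under vehicle comparisons, Ccne2 being the addition (adjusted p = 0.0469). The members' signal over background was not measured, which limits what is known of the dimmest, Ccne2 and the dimmer Cdkn1b set.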
